A study of Arabidopsis thaliana with 6 samples.

Results

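The genes described here are 8 genes of flavonoid and anthocyanin synthesis in Arabidopsis thaliana, each read by 1 probe set, of 22746 probe sets on the ATH1 array once the Affymetrix controls are left out. They were chosen by probe set identifier as CHS, CHI, F3H, F3'H, FLS1, LDOX and PAP1, and by annotation as DFR (AT5G42800). The platform annotation used here names the DFR probe set and does not list the other 7, so their gene names come from the selection alone, and no identifier was annotated to another locus. The study compared wild-type Col-0 plants treated with saliva of the phloem-feeding aphid Myzus persicae with control plants. There were 3 saliva and 3 control arrays, and all plants were 3 weeks old, not yet flowering, and grown on soil at 23 °C under a 16 h photoperiod. The labels used here do not give the tissue, the way saliva was applied, the time after treatment, what the controls received, or whether the replicates were separate plants, so the replicate spread behind each p-value may be technical.

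Flavonoids are made from the phenylpropanoid pathway, which turns phenylalanine into activated coumarate. A short common trunk leads to dihydroflavonols, from which one branch makes flavonols, colourless compounds that shield tissue from ultraviolet light, and another makes anthocyanins, the red and purple pigments that build up in leaves under strong light, cold, sugar excess or nutrient shortage. The trunk and flavonol genes of Arabidopsis are switched on largely by one group of MYB factors, and the anthocyanin branch by complexes of another MYB factor such as PAP1 with bHLH proteins and the WD40 protein TTG1.

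The deposited values are signals, a brightness on a linear scale set so that every array has the same trimmed mean. Differences are given on the scale log2(signal + 16), which understates the change of dim probe sets, and were tested in limma, with p-values adjusted over all probe sets tested. The dimmest 40% of probe sets, by mean log2 value over the arrays, were left out, which kept 13647 with a mean above 5.04, or a signal of 16.8. Of the 8 genes, CHS, CHI, F3'H, FLS1 and PAP1 passed this filter and F3H, DFR and LDOX did not. The values of those 3 come from the same fit without the filter. CHS and F3'H had control means of 4.97 and 4.84, below the filter, and passed through their saliva means of 6.19 and 5.39. No detection calls were used here, so whether the dim signals exceeded background was not tested.

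Saliva replicate 3 stood apart from the other arrays over all probe sets tested. On the first principal component, with 31.9% of the variance, it lay at 22.7, the other saliva arrays at 0.369 and 5.31, and the controls between -13.0 and -7.07. Results are given with and without it, in part as alternatives chosen after the values had been seen. As for tissue, 0 of 7 leaf markers and 0 of 5 flower markers had a named probe set. The summed signal of the 3 named root markers, of 5, was 8.10 to 17.3 in controls and 9.38 to 18.7 with saliva. The seed coat gene BAN, the 1 named of 3 seed coat markers, lay between 0.562 and 2.50 on all arrays, and the guard cell gene FMA, the 1 named of 2, between 41.6 and 51.0.

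CHS (TT4, 250207_at), chalcone synthase, makes the first committed step of the trunk and differed most of the 8 genes. Its control signals were 28.4, 1.90 and 22.7 for replicates 1, 2 and 3, and its saliva signals were 29.2, 45.1 and 125. The groups did not overlap, but the lowest saliva array and the highest control array were nearly level, and saliva replicate 3 was far above the rest. The difference was 1.22 ± 0.38 (SE) on the log2 scale, a 2.33-fold ratio, with a 95% interval of 0.41 to 2.04 that is not adjusted for the number of genes. The difference did not pass in limma (unadjusted p = 0.00655, adjusted p = 0.244), nor in limma without the filter (unadjusted p = 0.0275, adjusted p = 0.570). With the filter, it was 0.75 without saliva replicate 3 (limma adjusted p = 0.375). Without control replicate 2, the lowest array, it was 0.82 (limma with the filter, adjusted p = 0.587). Without both the filter and saliva replicate 3, the difference had an unadjusted p of 0.0940 and an adjusted p of 0.649 in limma. Its size also depends on the offset, at 2.15 with an offset of 1 and 0.62 with an offset of 64. In these bulk samples, a difference in the number of cells of a type and one in RNA per cell cannot be told apart.

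CHI (TT5, 251827_at), chalcone isomerase, closes the chalcone ring in the next step and did not follow CHS. Its control signals were 42.7, 42.2 and 41.1, and its saliva signals were 41.5, 38.8 and 35.7. The groups overlapped, and saliva replicate 3, the highest array for CHS, was the lowest for CHI. The difference was -0.087 ± 0.12 (SE), with a 95% interval of -0.35 to 0.17 (limma adjusted p = 0.864). Its spread was the smallest of the 8 genes, with a within-group SD of 0.056 on the log2 scale, exceeded by 96.9% of all probe sets tested.

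F3H (TT6, 252123_at), flavanone 3-hydroxylase, makes the dihydroflavonols at the end of the trunk. Its signals were 10.8, 8.09 and 12.4 in controls and 12.3, 18.8 and 31.7 with saliva. Saliva replicate 1 lay within the range of the controls and the other saliva arrays above it. The difference was 0.45 ± 0.20 (SE; limma without the filter, adjusted p = 0.629), and 0.25 without saliva replicate 3.

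**Figure D1:**
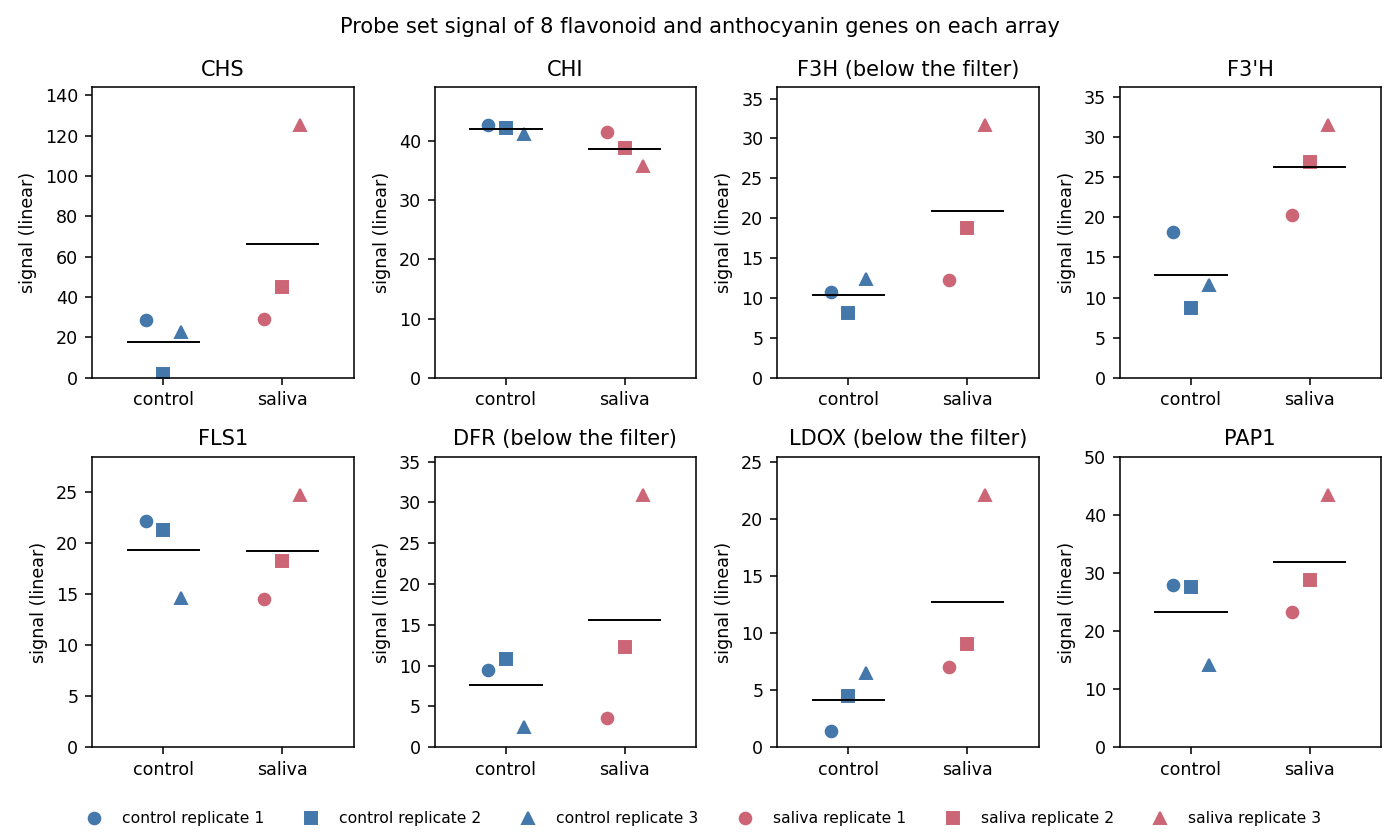
Signal on a linear scale (vertical axis, from 0, with its own range in each panel) of 8 genes on 3 control (blue) and 3 saliva (red) arrays, with the marker shape giving the replicate number and the line the group mean. Saliva replicate 3 is the highest array in 7 of the 8 panels and the lowest for CHI.

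F3'H (TT7, 250558_at), the cytochrome P450 that adds a hydroxyl group to the B ring, lay above control on each saliva array, as CHS did, with less spread. Its signals were 18.1, 8.75 and 11.6 in controls and 20.3, 26.9 and 31.5 with saliva. The groups did not overlap, and saliva replicate 3 exceeded replicate 2 by only 0.15 on the log2 scale. The difference was 0.56 ± 0.17 (SE), a 1.47-fold ratio, with a 95% interval of 0.19 to 0.92. The difference did not pass in limma (unadjusted p = 0.00549, adjusted p = 0.234), nor in limma without the filter (unadjusted p = 0.0114, adjusted p = 0.483). It was 0.47 without saliva replicate 3, so it moved less than CHS, F3H, DFR, LDOX or PAP1 in proportion, and it was 1.01 with an offset of 1 and 0.23 with an offset of 64.

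In the flavonol branch, FLS1 (250533_at), flavonol synthase, draws dihydroflavonols into flavonols. Its signals were 22.1, 21.3 and 14.6 in controls and 14.5, 18.2 and 24.7 with saliva. The groups overlapped over most of their range. The difference was -0.0098 ± 0.16 (SE), with a 95% interval of -0.36 to 0.34 (limma adjusted p = 0.992), so a change of up to about these sizes could not be told from none.

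In the anthocyanin branch, DFR (TT3, 249215_at), dihydroflavonol reductase, takes the step that commits dihydroflavonols to anthocyanins. Its signals were 9.46, 10.9 and 2.43 in controls and 3.54, 12.3 and 30.9 with saliva. Saliva replicate 1 lay within the range of the controls, and saliva replicate 3 was far above the other arrays. The difference was 0.35 ± 0.30 (SE; limma without the filter, adjusted p = 0.826) and 0.014 without saliva replicate 3.

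LDOX (TT18, 254283_s_at), anthocyanidin synthase, makes the first coloured compound. Its probe set name ends in _s_at, the Affymetrix mark for probes that match more than 1 transcript, so its signal may include a related one. The signals were 1.43, 4.53 and 6.50 in controls and 7.01, 9.09 and 22.2 with saliva. The groups did not overlap, although saliva replicate 1 and control replicate 3 were close. The difference was 0.48 ± 0.20 (SE; limma without the filter, adjusted p = 0.608) and 0.26 without saliva replicate 3. With an offset of 1 it was 1.41 and with an offset of 64 it was 0.17.

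PAP1 (MYB75, 245628_at), the MYB activator of the anthocyanin branch, had signals of 28.0, 27.7 and 14.1 in controls and 23.2, 28.8 and 43.5 with saliva. Saliva replicate 1 lay within the range of the controls, replicate 2 just above it, and replicate 3 clearly above it. The difference was 0.29 ± 0.19 (SE), with a 95% interval of -0.12 to 0.70 (limma adjusted p = 0.657), and 0.12 without saliva replicate 3.

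In the fit without the filter, which measured all 8 genes, 6 were higher and 2 lower with saliva, and their median difference was 0.40, beside 0.0026 over all 22746 probe sets, 50.8% of which were higher. Without saliva replicate 3 the median of the 8 was 0.18, with 6 again higher, beside -0.0040 over all probe sets. In limma 0 of the 8 had an adjusted p under 0.05, where 0.00440% of probe sets did. With the filter it was 0 of the 5 genes tested, where 0.0586% of probe sets passed. An unadjusted p under 0.05 was reached by 4 of the 8, CHS, F3H, F3'H and LDOX, where 7.94% of probe sets reached it. Without saliva replicate 3 it was 1 of the 8, F3'H, where 8.51% reached it. With all arrays F3H was close to the threshold, at an unadjusted p of 0.0497 in limma. Its p fell on either side of 0.05 with the processing, at 0.0343 with quantile normalization and 0.0591 with an offset of 1. The saliva arrays lay all above the control arrays in 3 of the 8, CHS, F3'H and LDOX, where 6.70% of probe sets did so. The same 3 genes were above without saliva replicate 3, where 12.5% of probe sets were. The 8 genes belong to 1 pathway and were measured on the same 6 arrays, so they are not 8 independent observations.

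**Figure D2:**
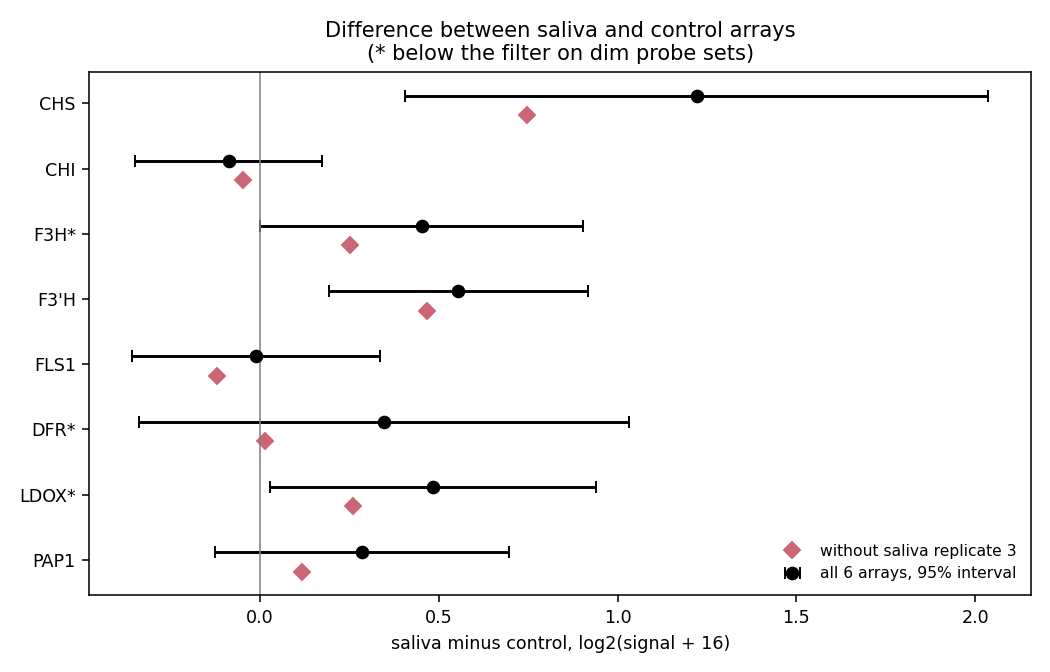
Difference between saliva and control on the log2(signal + 16) scale (horizontal axis) for the 8 genes, with 95% intervals from limma over all 6 arrays (black) and the value without saliva replicate 3 (red diamonds). The intervals of F3H, DFR and LDOX come from the fit without the filter and the others from the fit with it. For 6 of the genes the black points lie above 0, and the diamonds lie nearer to 0 for each gene except FLS1, with 0.75 for CHS and 0.014 for DFR.

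Much of the pattern lay within the saliva group. Saliva replicate 3 was the highest of the 6 arrays in 7 of the 8 genes, while it was the highest in 22.0% of all probe sets. In the same 7 genes saliva replicate 1 was the lowest and replicate 3 the highest of the saliva arrays, with replicate 2 between them, an arrangement seen in 21.4% of all probe sets and the one the saliva arrays have on the first principal component. For CHS, saliva replicate 3 exceeded the next array by 1.21 on the log2 scale, a gap reached by 0.0791% of all probe sets. The corresponding gaps were 0.73 for DFR, reached by 0.295%, and 0.60 for LDOX, reached by 0.563%. They were 0.45 for F3H, reached by 1.18%, and 0.41 for PAP1, reached by 1.49%. For FLS1 and F3'H the gaps were 0.096 and 0.15, reached by 12.3% and 8.89%. What sets this array apart was not tested. These counts were made after the values had been seen.

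The genes also differed in how much they varied between replicates. The within-group SD of CHS was 0.78 on the log2 scale, and 0.0733% of the probe sets tested had one at least as large, against a median of 0.15 for all tested. DFR followed with an SD of 0.49, reached by 0.572% of those tested, although DFR itself lay under the filter and was not among them. That of FLS1 was 0.19, reached by 29.3%. The spread of CHS was not confined to the saliva group, since its SD was 0.71 in controls, where replicate 2 was low, and 0.85 with saliva. That of DFR was 0.29 in controls and 0.63 with saliva.

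The other 7 genes were then set against CHS over the 6 arrays, with two-sided exact permutation tests adjusted over the 7 relations. The permutations mix control and saliva arrays. A difference between the groups, or an outlying array, that genes share can therefore give a small p by itself. F3'H put the arrays in the same order as CHS, with Pearson's r = 0.920 (exact p = 0.00417, adjusted p = 0.0194) and Spearman's rho = 1.00 (exact p = 0.00278, the smallest that 6 arrays allow, adjusted p = 0.0194). F3H had r = 0.946 (exact p = 0.00556, adjusted p = 0.0194) and rho = 0.829 (exact p = 0.0583, adjusted p = 0.136). Both relations kept their size without the arrays farthest from the median of CHS, control replicate 2 and saliva replicate 3, with r = 0.945 for F3'H and 0.870 for F3H over the other 4. As deviations from the group means, which leave out the difference between the groups, r was 0.867 and 0.895, with no test run.

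CHI ran the other way, with r = -0.866 (exact p = 0.0181, adjusted p = 0.0421) and rho = -0.714 (exact p = 0.136, adjusted p = 0.191), over a range of only 35.7 to 42.7 in signal. Without the same 2 arrays its r was -0.766, and without saliva replicate 3 alone it was -0.593. As deviations from the group means it was -0.743, with no test run.

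The relations of the remaining 4 genes did not pass. LDOX had r = 0.797 (exact p = 0.0764, adjusted p = 0.134) and rho = 0.829 (exact p = 0.0583, adjusted p = 0.136), and r = 0.454 without the 2 farthest arrays. DFR had r = 0.642 (exact p = 0.147, adjusted p = 0.206) and rho = 0.600 (exact p = 0.242, adjusted p = 0.282), and r = 0.818 without them. PAP1 had r = 0.576 (exact p = 0.179, adjusted p = 0.209) and rho = 0.714 (exact p = 0.136, adjusted p = 0.191), and r = 0.757 without them. FLS1 had r = 0.314 (exact p = 0.590, adjusted p = 0.590) and rho = 0.257 (exact p = 0.658, adjusted p = 0.658), and r = 0.319 without them. Over the 5 arrays without saliva replicate 3, r was -0.102 for DFR, -0.0174 for PAP1 and -0.357 for FLS1, while all 3 were positive over the 4 arrays without control replicate 2 as well, so their sign depends on which arrays are kept.

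**Figure D3:**
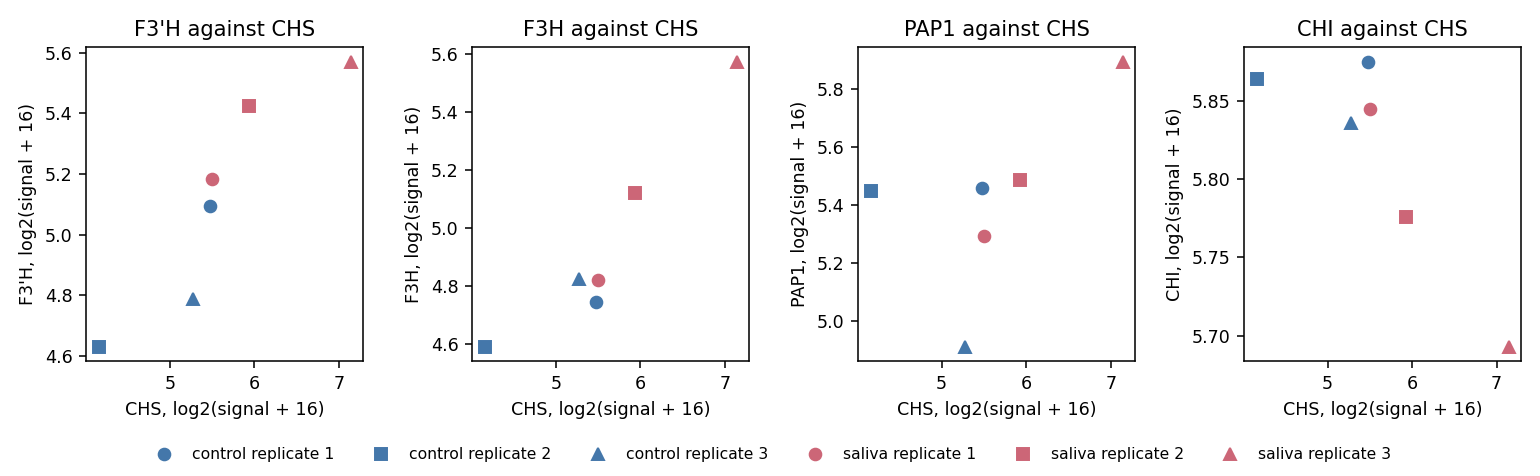
Level of F3'H, F3H, PAP1 and CHI (vertical axes, each with its own range) against that of CHS (horizontal axes), all as log2(signal + 16), with 1 point for each of 3 control (blue) and 3 saliva (red) arrays. F3'H and F3H increase with CHS over the 6 arrays (r = 0.920 and 0.946), PAP1 is high with it on saliva replicate 3, and CHI is lowest there.

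Outside the pathway lists, 7363 probe sets tested and annotated to 1 gene were searched for those most like CHS over the 6 arrays, as a description. The highest r belonged to AT3G12040 (0.988), AT2G39710 (0.984), AT4G03450 (0.984), AT1G28580 (0.983), AT4G39320 (0.982) and ALDH10A9 (AT3G48170, an aldehyde dehydrogenase gene, 0.980). Their r was 0.952 to 0.989 without saliva replicate 3. All 6 were highest on that array and lowest on control replicate 2, as CHS was. They differed less between the groups, by 0.21 to 0.39 on the log2 scale, and none of the 6 passed in limma (adjusted p from 0.448 to 0.608). An r of at least 0.9 was found for 88 of the genes searched, or 1.20%.

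The lists of other pathway genes hold 63 entries, of which 12 had a probe set named for that gene alone and 4 passed the filter. None of the 8 entries of the general phenylpropanoid steps, the 3 of transport or the 8 of repressors had one, so the supply of coumarate and the repressors were not analysed here by name. In limma 0 of the 12 had an adjusted p under 0.05 and 1, UGT79B1, had an unadjusted p under 0.05, a share close to the 7.94% of all probe sets. By value 5 were higher and 7 lower, with a median difference of -0.098, and the groups overlapped in all 12, where 13.2% of probe sets had groups that did not overlap, 6.70% with saliva above.

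UGT79B1 (AT5G54060), which adds xylose to anthocyanins, had the largest difference of the 12. Its signals were 1.67, 6.98 and 2.14 in controls and 13.2, 6.08 and 27.8 with saliva. Saliva replicate 2 lay within the controls and saliva replicate 3 was the highest. The difference was 0.65 ± 0.24 (SE; limma without the filter, adjusted p = 0.570) and 0.38 without saliva replicate 3. With an offset of 1 it was 1.81 and with 64 it was 0.23. CHIL (AT5G05270), a chalcone isomerase-like protein that assists the trunk, was the other list gene highest on saliva replicate 3, at 6.78 against 0.579 to 1.45 on the other 5 arrays. It differed by 0.13 ± 0.12 (SE; limma without the filter, adjusted p = 0.848) and by -0.018 without that array.

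Of the flavonol glycosyltransferase genes, UGT78D1 (AT1G30530), which adds rhamnose, had signals of 34.8 to 62.6 in controls and 37.4 to 51.7 with saliva and differed by -0.056 ± 0.16 (SE; limma adjusted p = 0.950). UGT89C1 (AT1G06000), which adds rhamnose at another position, had 52.5 to 72.7 and 34.4 to 64.2 and differed by -0.21 ± 0.17 (SE; limma adjusted p = 0.734), with -0.018 without saliva replicate 2 and -0.35 without saliva replicate 3. UGT78D2 (AT5G17050), which adds glucose to flavonols and anthocyanins, had 43.8 to 59.9 and 52.0 to 58.5 and differed by 0.11 ± 0.13 (SE; limma adjusted p = 0.828), with 0.040 to 0.21 without single arrays. In each of these 3 genes the highest array was a control. UGT78D3, an arabinosyltransferase gene of the same family, lay under the filter and differed by -0.23 ± 0.17 (SE).

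Among the other genes under the filter, the anthocyanin genes UGT75C1, a glucosyltransferase, and 5MAT, a malonyltransferase, differed by 0.074 ± 0.16 and -0.27 ± 0.15 (SE). BAN, anthocyanidin reductase of seed coat tannin synthesis, differed by 0.064 ± 0.076 (SE), and HYH, a light-signalling bZIP factor gene and the 1 activator named of 16, by -0.19 ± 0.13 (SE). In the monolignol branch, HCT, which diverts coumarate towards lignin, was bright, at 375, 384 and 524 in controls and 335, 380 and 438 with saliva, and differed by -0.14 ± 0.14 (SE; limma adjusted p = 0.793). CCR2, a cinnamoyl-CoA reductase gene of the same branch, differed by -0.16 ± 0.17 (SE).

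**Figure D4:**
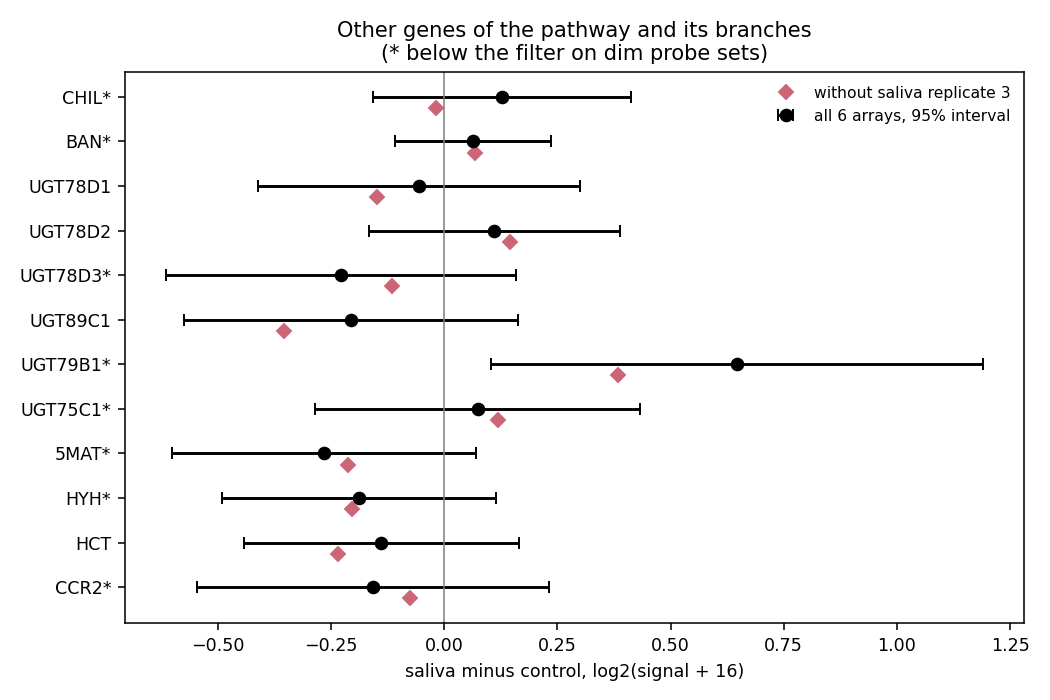
Difference between saliva and control on the log2(signal + 16) scale (horizontal axis) for 12 other genes of the pathway and its branches, with 95% intervals from limma over all 6 arrays (black) and the value without saliva replicate 3 (red diamonds). The intervals of UGT78D1, UGT78D2, UGT89C1 and HCT come from the fit with the filter and the others from the fit without it. The interval of UGT79B1 lies above 0, at 0.10 to 1.19 before any adjustment, and the other 11 include 0.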

How the data were processed

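Total RNA was labelled with biotin and hybridised to 6 ATH1 arrays. The authors deposited 1 signal per probe set and array, a linear intensity. MAS5, GCOS and limma are named in the submitters' processing notes, without roles or versions. The trimmed mean signal was 100.01 on each array with the lowest and highest 2% left out, so the authors' scaling was kept. Groups and replicate numbers come from the labels. The table had 0 columns of other samples.

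The 64 control probe sets were removed, 16 was added to each signal and log2 taken, and the 40% of 22746 probe sets with the lowest mean were left out. The groups were compared by limma 3.58.1 under R 4.3.3, with the moderated test fitted with a trend on the mean, two-sided, at a Benjamini-Hochberg adjusted p under 0.05. The fit was tested on simulated data of independent normal values. These held no outlying array, so that test does not cover data with one. Gene names came from the platform annotation, updated through RefSeq's TAIR10.1 gene table, which held 99.4% of the identifiers. The brightest probe set stands for a gene with several. The 8 genes and the lists, the latter written from memory by locus, were chosen with earlier results of these data known. All 8 genes are named, as are the list genes with a probe set of their own and the 6 genes most like CHS. No sequences or coordinates are given. Alternatives changed the offset, filter, normalization, variance model, array weights and replicate block, and left out single arrays. The small number of arrays limits the precision.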

Additional observations from a re-analysis of the deposited data

How the results depend on the processing

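The number of genes past the adjusted threshold was 0 under each of the 14 alternatives that kept any of the 8, those without single arrays included. It was 0 of the 8 with no filter and 0 of the 5 genes tested under the others. With the lowest 60% of probe sets left out, 0 of the 8 remained. The count over all probe sets was 8 and moved under each alternative, for reasons not tested: 2 with offsets of 1 and 64, median centring and the lowest 60% left out, 1 with no filter, with quantile normalization and with no trend of the variance, 53 when arrays were weighted, 29 with the replicate block, and 1 to 14 without single arrays. The replicate numbers were not taken to pair the arrays. Deviations of same-numbered arrays correlated at -0.059, 0.116 and 0.152, and those of differently numbered arrays at -0.168 to 0.089. These values do not settle the pairing. In limma with the replicate block CHS had an unadjusted p of 0.00105 and an adjusted p of 0.111. Those of F3'H were 0.00837 and 0.235. CHS kept its direction at 0.62 to 2.15 and F3'H at 0.23 to 1.01 over all alternatives. Their limma adjusted p ran from 0.111 to 0.587 and from 0.132 to 0.587. Except with no filter, these p and those with the replicate block come from fits with the filter. CHS and F3'H passed that filter through their saliva means, which favours a positive median of the 5 tested. In limma without both the filter and saliva replicate 3, the adjusted p was 0.649 for CHS and 0.564 for F3'H. The median of the 5 genes tested was 0.29, beside 0.0057 over all probe sets tested, and 0.11 to 0.42 without single arrays. In limma without the filter, 4 of the 8 genes had an unadjusted p under 0.05, where 7.94% of all probe sets did. Without saliva replicate 3 it was 1 of the 8, where 8.51% did. FLS1 changed sign to 0.048, 0.033, 0.087 and 0.0046 without control replicates 1 and 2 and saliva replicates 1 and 2, in a range of -0.12 to 0.087 without single arrays. Without control replicate 3, UGT78D1 was 0.12 and HCT 0.011; without saliva replicate 1, UGT78D1 was 0.023 and UGT75C1 -0.062; without saliva replicate 3, CHIL was -0.018. Their ranges without single arrays were -0.20 to 0.12 for UGT78D1, -0.23 to 0.011 for HCT, -0.062 to 0.20 for UGT75C1 and -0.018 to 0.21 for CHIL. The r with CHS without saliva replicate 3, an alternative chosen after seeing the data, was -0.593 for CHI, 0.344 for LDOX, -0.357 for FLS1, -0.102 for DFR and -0.0174 for PAP1, and that of LDOX without the 2 farthest arrays was 0.454. F3H ran from 0.18 to 0.86, DFR from 0.014 to 0.73, LDOX from 0.17 to 1.41 and PAP1 from 0.11 to 0.45 over all alternatives. F3H, DFR and LDOX lay under the filter, and no detection calls were used.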
